A study of Mus musculus with 12 samples.

Results

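10 genes that mark T cells and their main subsets were followed in the gut of mice lacking an enhancer of Ctnnb1. They were chosen by name: the CD3 chain genes Cd3d, Cd3e and Cd3g, the coreceptor genes Cd4, Cd8a and Cd8b1, the granzyme genes Gzma and Gzmb, the integrin gene Itgae and the transcription factor gene Foxp3. All 10 were found in both expression tables, each of which lists 54532 genes. The tables come from bulk RNA-seq of 12 libraries. ieCtnnb1 is an intestinal enhancer upstream of Ctnnb1, the gene of β-catenin, and the study asked what its loss does to the normal gut epithelium and to tumors. Crypts, the stem cell compartment of the epithelium, were taken from the small intestine of adult mice, 3 of the genotype Wild type and 3 ieCtnnb1KO. Colon tumors were taken from adult mice at the age of 5 months, 3 APCmin/+ and 3 APCmin/+;ieCtnnb1KO. All 6 tumor libraries thus share the heterozygous Min allele, a nonsense mutation of Apc that starts intestinal tumors, and only the crypt mice have intact Apc. No mouse was treated, and the line was kept on a C57BL/6 background. The enhancer was deleted in the germ line with CRISPR/Cas9, so every cell of a knockout mouse, T cells included, lacks it. Crypts were released with EDTA and filtered to remove villi, with no sort for or against leukocytes.

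T cells recognize antigen through a receptor whose variable chains are joined to the invariant CD3 chains, and CD4 or CD8 binds the presenting molecule beside it. The intestinal epithelium harbours intraepithelial lymphocytes, a dense T cell population that sits between epithelial cells, is rich in CD8αα and γδ T cells, stores granzymes and is held in place by the integrin αE chain (Itgae), which binds E-cadherin. Regulatory T cells, marked by FOXP3, restrain other T cells and are well known in the colon and in tumors.

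Ctnnb1, the gene whose enhancer was deleted, was lower in every knockout library of both tissues. In crypts its FPKM (fragments scaled to gene length and library size, a level that can be compared between genes) was 121, 134 and 123 in wild-type replicates 1, 2 and 3, and 102, 104 and 105 in the ieCtnnb1KO replicates. In tumors it was 299, 363 and 358 in the APCmin/+ replicates and 279, 248 and 250 in the APCmin/+;ieCtnnb1KO replicates. The groups did not overlap in either tissue. The difference of mean log2(FPKM + 0.5), knockout minus control, was -0.28 (SE 0.12) in crypts, with an adjusted p of 0.849 in limma, and -0.39 (SE 0.13) in tumors, with an adjusted p of 0.303. The libraries held between 14457896 and 16156712 fragments on genes, recovered from the steps in which FPKM rises. 2 libraries stand apart in sex: Xist, the transcript of the inactive X chromosome, had an FPKM of 114 in APCmin/+ replicate 3 and of 61.4 in APCmin/+;ieCtnnb1KO replicate 3, against at most 0.0623 in the other 10.

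In crypts the T cell genes were led by the granzymes, and all tested members but Cd3d overlapped between the genotypes. Foxp3 had only 4 to 11 fragments per crypt library. In tumors all of them were low, at most at 3.17 FPKM, and Cd8a (2 to 17 fragments) and Cd8b1 (0 to 7) were near the limit of detection. A gene was tested with limma where its mean FPKM over the 6 libraries of a tissue was at least 0.5. This holds for 9 of the 10 members in crypts, all but Foxp3, and for 6 in tumors, namely Cd3d, Cd4, Gzma, Gzmb, Itgae and Foxp3. Of the tested members, 0 had an adjusted p under 0.05 in crypts, against 0 of all 14176 tested genes (0%), and 0 had one in tumors, against 0 of 16743 (0%). voom in limma on the recovered fragments also called 0 genes in each tissue, and leaving out wild-type replicate 3 gave 3 called genes in crypts. The limma p-values here set the difference between genotypes against the spread between these libraries, moderated over all tested genes. At an unadjusted limma p under 0.05 stood 1 of 9 members in crypts, Cd3d, against 829 of all tested genes (5.85%), and 1 of 6 in tumors, Gzma, against 2421 (14.5%). These are also the members whose groups did not overlap, 1 of 9 in crypts against 11.9% of all tested genes, and 1 of 6 in tumors against 22.1%. Gzma passed the tumor filter only through the APCmin/+ group, with a mean FPKM of 1.09 against 0.417 in the knockout. Foxp3 passed it only through the knockout group, with 0.740 against 0.438. The tumor tests of Gzma and Foxp3 are therefore descriptive only. With so few members, counts of 1 do not set them apart from other genes. In bulk tissue, fewer T cells and less RNA of a gene per T cell cannot be told apart.

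**Figure D1:**
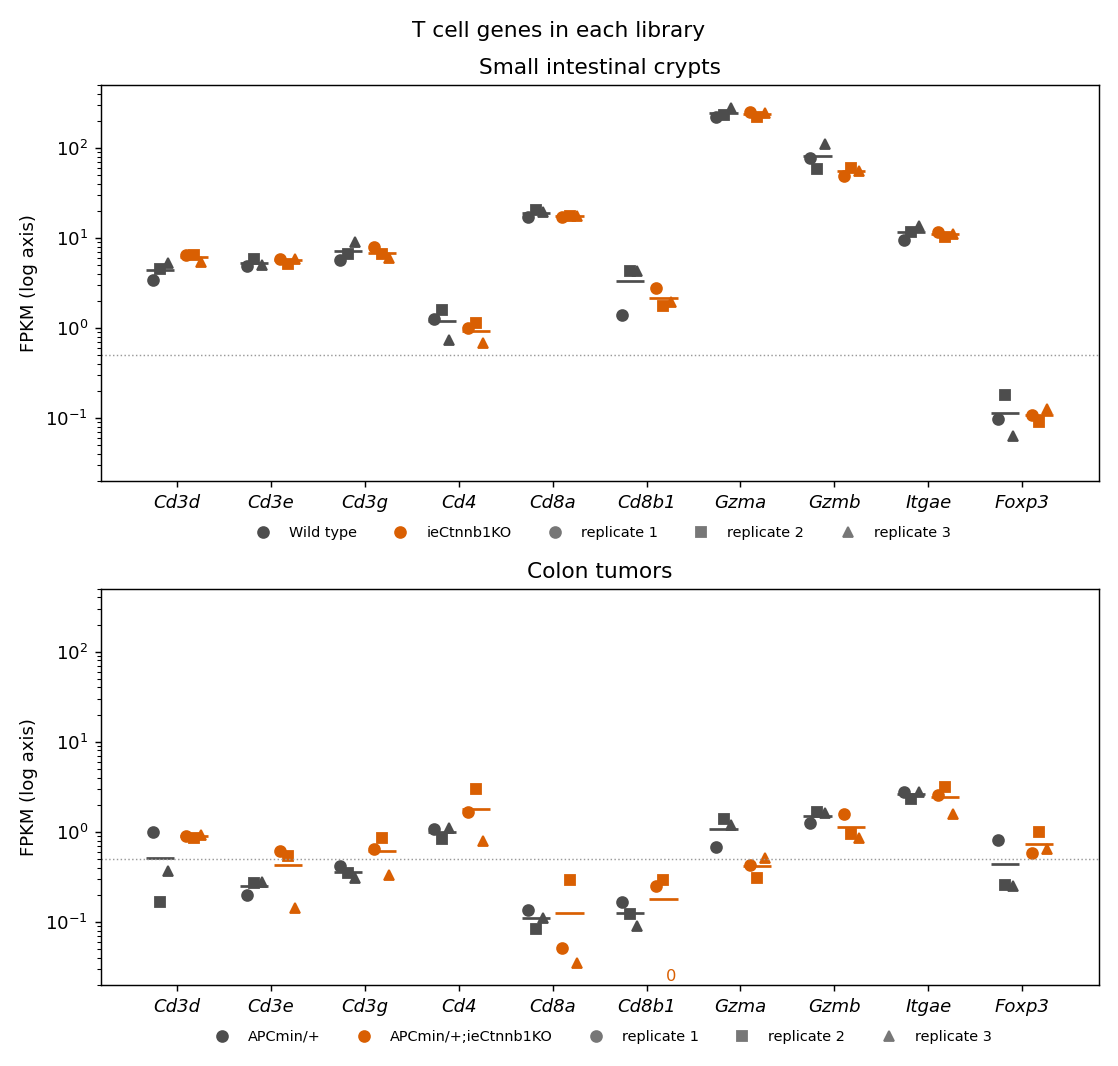
FPKM of the 10 T cell genes in each library, on a log axis, with crypts above and tumors below. Points are libraries, shaped by replicate, bars are group means, the dotted line is the mean FPKM of 0.5 from which genes were tested, and 0 marks a library without a fragment. In crypts Gzma lies above 200 FPKM in all 6 libraries and Foxp3 at most at 0.180, while in tumors no member exceeds 3.17.

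The 3 CD3 chain genes encode signaling subunits of the T cell receptor, and they are used together here as a measure of T cells. They lie next to each other on chromosome 9 (GRCm38): Cd3g at chr9:44969572-44980431 on the minus strand, Cd3d at chr9:44981786-44987339 on the plus strand, and Cd3e at chr9:44998740-45009627 on the minus strand. Cd3g and Cd3d are read away from each other across a gap of 1354 bases, and the gap between Cd3d and Cd3e is 11.4 kb. The windows from 250 bases before to 50 bases after the RefSeq start (build GRCm38.p6) are shown for this divergent pair, since Cd3d is the member whose groups separated in crypts and its neighbour did not. Capitals mark 3 motifs, searched on both strands: GGAAG (ETS core), TGTGGT (RUNX) and TCAAAG (TCF/LEF, the DNA-bound partners of β-catenin).
Cd3d: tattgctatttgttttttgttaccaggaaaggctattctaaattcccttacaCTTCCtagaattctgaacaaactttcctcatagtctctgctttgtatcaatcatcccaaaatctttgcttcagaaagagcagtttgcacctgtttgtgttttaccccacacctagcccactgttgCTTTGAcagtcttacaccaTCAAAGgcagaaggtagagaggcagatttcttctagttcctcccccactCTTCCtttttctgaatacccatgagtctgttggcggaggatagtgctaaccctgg
Cd3g: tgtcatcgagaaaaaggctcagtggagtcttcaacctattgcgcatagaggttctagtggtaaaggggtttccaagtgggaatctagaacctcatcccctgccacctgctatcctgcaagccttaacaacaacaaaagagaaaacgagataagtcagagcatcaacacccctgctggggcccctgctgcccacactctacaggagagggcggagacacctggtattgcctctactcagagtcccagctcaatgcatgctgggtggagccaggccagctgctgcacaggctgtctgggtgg
The Cd3d window, chr9:44981536-44981835 on the plus strand, holds 2 ETS and 2 TCF/LEF matches and 0 RUNX matches, and the matches do not overlap. The Cd3g window, chr9:44980382-44980681 on the minus strand, holds 0 of each. Of 32851 windows of this length in the RefSeq set, 71.4% hold the ETS letters, 16.8% the RUNX letters and 16% the TCF/LEF letters. Windows were found for 7 of the 10 members, and those not shown, of Cd3e, Cd8a and Foxp3, hold 0 TCF/LEF matches. A match describes letters only. The windows shown were picked after the expression values were seen, and the relation of any match to expression was not tested.

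Cd3d encodes the CD3δ chain. In crypts its FPKM was 3.45, 4.54 and 5.34 in wild-type replicates 1 to 3, and 6.40, 6.51 and 5.45 in the ieCtnnb1KO replicates. All 3 knockout libraries lay above all 3 wild-type libraries, but knockout replicate 3 exceeded wild-type replicate 3 by little. The means were 4.44 ± 0.949 and 6.12 ± 0.581 (SD, n = 3 each), from 97 to 198 fragments per library. The difference on the log2(FPKM + 0.5) scale was 0.44 (SE 0.17, 95% interval 0.03 to 0.84), with an adjusted p of 0.844 in limma, and it ran from 0.28 to 0.57 with each library left out. The exact two-sided permutation p was 0.1, the smallest that 3 libraries against 3 allow.

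Cd3e and Cd3g, the genes of the CD3ε and CD3γ chains, did not show this separation in crypts. Cd3e stood at 4.94, 5.77 and 4.96 FPKM in wild-type crypts and at 5.84, 5.14 and 5.90 in ieCtnnb1KO crypts. Cd3g stood at 5.69, 6.72 and 9.09 in wild-type crypts and at 7.99, 6.59 and 5.99 in ieCtnnb1KO crypts. Both genes overlapped between genotypes, and wild-type replicate 3 held the highest Cd3g value of the 6. The log2 differences were 0.10 (95% interval -0.19 to 0.39) for Cd3e and -0.05 (-0.50 to 0.41) for Cd3g. The sign for Cd3g turned without wild-type replicate 3 (0.13) and without knockout replicate 3 (0.04). Of the exon bases of Cd3e in GENCODE M21, 3.31% are shared with Gm48719 on the opposite strand, and the use of strand in counting is not stated, so reads of these 2 genes cannot be told apart there. Gm48719 had 0.496 to 2.65 FPKM in crypts.

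In tumors the same chains were low. Cd3d was measured at 0.987, 0.167 and 0.368 FPKM in APCmin/+ replicates 1 to 3, from 29, 5 and 10 fragments, and at 0.890, 0.859 and 0.919 in the APCmin/+;ieCtnnb1KO replicates. The knockout libraries were close to each other, while the APCmin/+ libraries spread around them, with replicate 1 the highest of all 6. The log2 difference of 0.55 had a 95% interval of -0.20 to 1.29 and an adjusted p of 0.445 in limma, and it ran from 0.29 to 0.87 with each library left out. As the values are near the added 0.5, the estimate depends on it: 0.94 with 0.1 added, 0.36 with 1 added and 1.09 in voom. Cd3e (0.197, 0.267 and 0.279 against 0.609, 0.535 and 0.141) and Cd3g (0.416, 0.352 and 0.307 against 0.646, 0.858 and 0.333) were under the filter and untested by limma. In both, knockout replicates 1 and 2 lay above every APCmin/+ library and knockout replicate 3 did not, and the exact permutation p was 0.4 and 0.3. Gm48719 is listed at 0 in the 3 APCmin/+ libraries and at 0.516, 0.345 and 0.355 FPKM in the knockout tumors.

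The coreceptor genes divide T cells into a helper and regulatory branch, which carries CD4, and a cytotoxic branch, which carries CD8. Cd8a encodes CD8α, which forms either a homodimer, common on intraepithelial lymphocytes, or a heterodimer with CD8β, the product of Cd8b1. Cd8a was the highest coreceptor gene of crypts, with 17.3, 20.5 and 19.2 FPKM in wild-type libraries and 17.1, 17.8 and 17.4 in ieCtnnb1KO libraries. The knockout values lay in a narrow band at the lower edge of the wild-type range, and the groups overlapped through wild-type replicate 1. From 889 to 1142 fragments per library, the log2 difference was -0.12 (SE 0.11, 95% interval -0.39 to 0.14). This is the narrowest interval among the coreceptors.

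Cd8b1 lies 35.9 kb from Cd8a on chromosome 6 and was far lower. It had 1.39, 4.32 and 4.30 FPKM in wild-type crypts and 2.77, 1.77 and 1.97 in ieCtnnb1KO crypts. Wild-type replicate 1 was the lowest of all 6 and the other wild-type libraries the highest, so the control group spanned the knockout group on both sides. Its log2 difference of -0.42 had a 95% interval of -1.31 to 0.48, and it was -0.87 without wild-type replicate 1 and -0.19 without wild-type replicate 2. Cd8b1 amounted to 0.0806, 0.210 and 0.224 of the Cd8a level in wild-type crypts, and to 0.163, 0.0997 and 0.113 in ieCtnnb1KO crypts.

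Cd4 was the lowest coreceptor gene in crypts, at 1.27, 1.57 and 0.744 FPKM in wild-type libraries and at 0.990, 1.14 and 0.689 in ieCtnnb1KO libraries. Replicate 3 was lowest in either genotype, and the groups overlapped. The log2 difference was -0.22 (95% interval -0.81 to 0.38), and from -0.42 to -0.05 with each library left out in turn. In tumors Cd4 was the highest coreceptor gene. It had 1.07, 0.827 and 1.11 FPKM in APCmin/+ libraries and 1.66, 2.98 and 0.795 in APCmin/+;ieCtnnb1KO libraries. The knockout group held both the highest and the lowest of the 6 values, in replicates 2 and 3. The log2 difference of 0.51 (SE 0.35, 95% interval -0.33 to 1.36) had an adjusted p of 0.512 in limma. It was 0.16 without knockout replicate 2 and 0.87 without knockout replicate 3. CD4 protein is also known on some macrophages, whose genes are abundant in these tumors, and their part in the Cd4 level was not tested.

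Cd8a and Cd8b1 were barely detected in tumors. Cd8a had 0.136, 0.0833 and 0.110 FPKM in APCmin/+ libraries, from 8, 5 and 6 fragments, and 0.0513, 0.291 and 0.0353 in APCmin/+;ieCtnnb1KO libraries, from 3, 17 and 2. Cd8b1 had between 2 and 4 fragments in APCmin/+ libraries, and 6, 7 and 0 in the knockout. Knockout replicate 2 was highest for both genes and replicate 3 lowest, and no difference between genotypes was detectable at this depth.

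The granzymes are serine proteases that cytotoxic lymphocytes release into target cells. Gzma lies at chr13:113093825-113100981 and Gzmb at chr14:56258838-56262260, both on the minus strand of GRCm38. Each belongs to a family of related proteases with neighbours on its chromosome, and how reads shared between relatives were assigned is not stated. Their start windows from RefSeq (GRCm38.p6) are shown because Gzma is the member that separated in tumors and Gzmb the one with the largest estimated difference in crypts, with the same 3 motifs in capitals.
Gzma: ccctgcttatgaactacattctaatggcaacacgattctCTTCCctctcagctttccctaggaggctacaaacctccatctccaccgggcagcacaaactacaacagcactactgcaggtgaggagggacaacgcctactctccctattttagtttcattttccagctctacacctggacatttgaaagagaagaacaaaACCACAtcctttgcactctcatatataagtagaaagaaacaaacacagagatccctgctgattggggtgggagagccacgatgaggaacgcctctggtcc
Gzmb: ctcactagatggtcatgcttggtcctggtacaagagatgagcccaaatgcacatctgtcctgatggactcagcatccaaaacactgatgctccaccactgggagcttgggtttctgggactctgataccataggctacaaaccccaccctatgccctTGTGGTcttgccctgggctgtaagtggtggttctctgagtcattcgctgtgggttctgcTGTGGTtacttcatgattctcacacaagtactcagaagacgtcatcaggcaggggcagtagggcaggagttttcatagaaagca
The Gzma window, chr13:113100932-113101231 on the minus strand, holds 1 RUNX and 1 ETS match, and the Gzmb window, chr14:56262285-56262584 on the minus strand, holds 2 RUNX matches and 0 ETS matches. Neither holds the TCF/LEF letters.

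Gzma was the highest member by far in crypts. Its FPKM was 220.0, 229 and 281 in wild-type libraries and 249, 220.1 and 244 in ieCtnnb1KO libraries. Only 1.29% of the tested crypt genes had a mean FPKM as high. The 2 genotypes overlapped fully apart from the high value of wild-type replicate 3. The log2 difference was -0.03 (SE 0.16, 95% interval -0.39 to 0.34), and its sign turned without wild-type replicate 3 (0.08) or knockout replicate 2 (0.03).

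Gzmb, the granzyme that cleaves caspase substrates, was the crypt member with the lowest estimate in the knockout. It was measured at 77.5, 57.8 and 109 FPKM in wild-type crypts and at 49.1, 60.02 and 55.4 in ieCtnnb1KO crypts. Wild-type replicates 1 and 3 were above all knockout libraries, and wild-type replicate 2 fell between them. The means were 81.5 ± 25.9 and 54.9 ± 5.46 (SD, n = 3 each). The log2 difference of -0.52 (SE 0.23) had a 95% interval of -1.08 to 0.03 and an adjusted p of 0.849 in limma. Without wild-type replicate 3 the estimate was -0.29.

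Tumors held little of either granzyme. Gzma was at 0.675, 1.39 and 1.20 FPKM in APCmin/+ libraries, from 11, 23 and 18 fragments, and at 0.432, 0.310 and 0.510 in APCmin/+;ieCtnnb1KO libraries, from 7, 5 and 8. All 3 knockout libraries lay below all 3 controls. The filter was passed only through the APCmin/+ group, with a mean of 1.09 FPKM against 0.417 in the knockout. No conclusion is drawn from the test of Gzma. The log2 difference was -0.77 (SE 0.24, 95% interval -1.34 to -0.19), with an adjusted p of 0.298 in limma and an exact permutation p of 0.1. The size again depends on the added 0.5, with -1.16 at 0.1, -0.54 at 1 and -1.32 in voom, and the ratio of the means was 0.384. Gzmb stood at 1.25, 1.65 and 1.63 FPKM in APCmin/+ tumors and at 1.56, 0.955 and 0.848 in the knockout, where replicate 1 lay among the controls. Its log2 difference was -0.33 (95% interval -0.84 to 0.18), or from -0.51 to -0.21 with each library left out, and -0.50 in voom.

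Itgae, the integrin chain that ties intraepithelial lymphocytes to E-cadherin, lies at chr11:73090583-73147446 on the plus strand and contains Haspin on the opposite strand, with 0 exon bases in common. In crypts it had 9.50, 11.6 and 13.7 FPKM in wild-type libraries and 11.6, 10.2 and 11.1 in ieCtnnb1KO libraries. The knockout values all lay inside the wild-type range. The log2 difference was -0.06 (SE 0.15, 95% interval -0.42 to 0.30), and it turned to 0.06 without wild-type replicate 3.

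In tumors Itgae was the highest of the 10 members, with 2.75, 2.30 and 2.77 FPKM in APCmin/+ libraries and 2.59, 3.17 and 1.57 in APCmin/+;ieCtnnb1KO libraries. The knockout group again held the extremes, replicate 2 the highest and replicate 3 the lowest of the 6. The log2 difference of -0.12 (95% interval -0.66 to 0.43) became 0.12 without knockout replicate 3. Itgae is also carried by some dendritic cells, and their part was not tested.

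Foxp3 encodes the factor that defines regulatory T cells. Crypts held 4 to 11 fragments of it per library, with 0.0972, 0.180 and 0.0640 FPKM in wild-type and 0.108, 0.0898 and 0.125 in ieCtnnb1KO crypts, too few for a comparison. In tumors it passed the filter only through the knockout group, with a mean of 0.740 against 0.438, so no conclusion is drawn from its test. Foxp3 had 0.805, 0.258 and 0.251 FPKM in APCmin/+ libraries and 0.576, 1.0 and 0.643 in APCmin/+;ieCtnnb1KO libraries. APCmin/+ replicate 1 fell among the knockout libraries, and the other APCmin/+ libraries lay below them. The log2 difference was 0.44 (SE 0.29, 95% interval -0.26 to 1.14), with an adjusted p of 0.501 in limma, and it ran from 0.29 to 0.70 with each library left out. With 0.1 added in place of 0.5 it was 0.76, with 1 added 0.29, and in voom 0.87. Foxp3 lies at chrX:7579676-7595243 in the deposited table, and GENCODE M21 gives it other bounds, so overlaps of the counted gene with its neighbours were not derived. In the GENCODE M21 model, 18.6% of the exon bases of Foxp3 are shared with Flicr on the same strand. On the opposite strand, 12.9% are shared with Ccdc22, 8.15% with Gm36995 and 5.81% with Ppp1r3f.

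**Figure D2:**
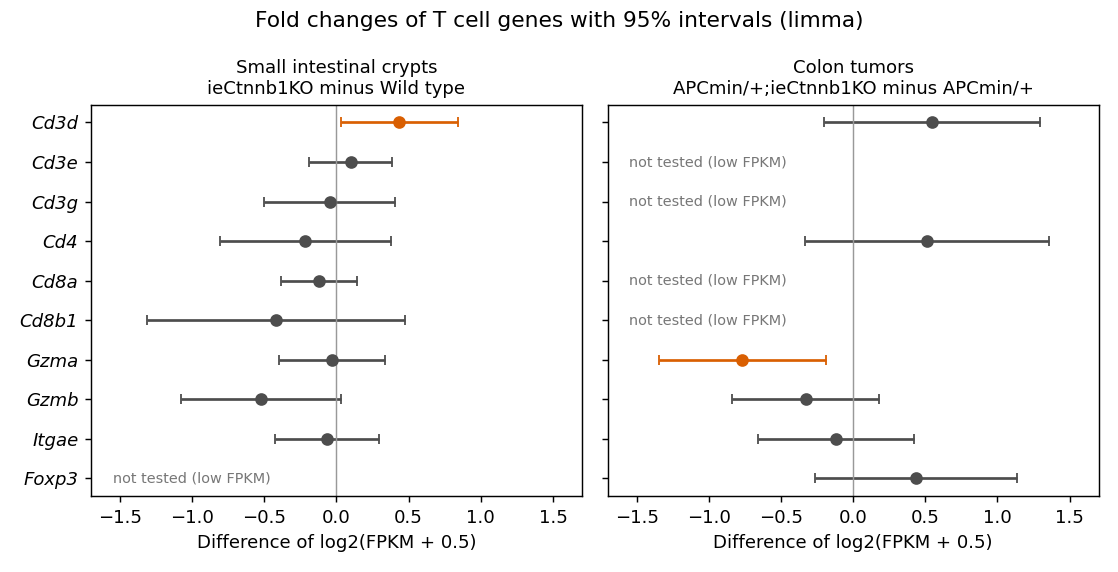
Difference of mean log2(FPKM + 0.5) between knockout and control for each tested member, with 95% intervals from limma, for crypts on the left and tumors on the right. Orange points are members whose groups do not overlap, Cd3d in crypts (0.44) and Gzma in tumors (-0.77), and every other interval spans 0.

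The members did not move as a block. In crypts 2 of the 9 tested members were higher in ieCtnnb1KO (Cd3d and Cd3e) and 7 lower, with a median log2 difference of -0.06 against 0.01 over all tested genes. Without wild-type replicate 3 the median of the members was 0.06. In tumors 3 of 6 were higher (Cd3d, Cd4 and Foxp3) and 3 lower (Gzma, Gzmb and Itgae), with a median of 0.16 against 0.01 over all tested genes. That median was -0.05 without knockout replicate 2 and -0.12 under a filter of 1 FPKM, which leaves Cd4, Gzmb and Itgae. Foxp3 and Gzma are counted here although each was tested only through the group where it is higher.

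**Figure D3:**
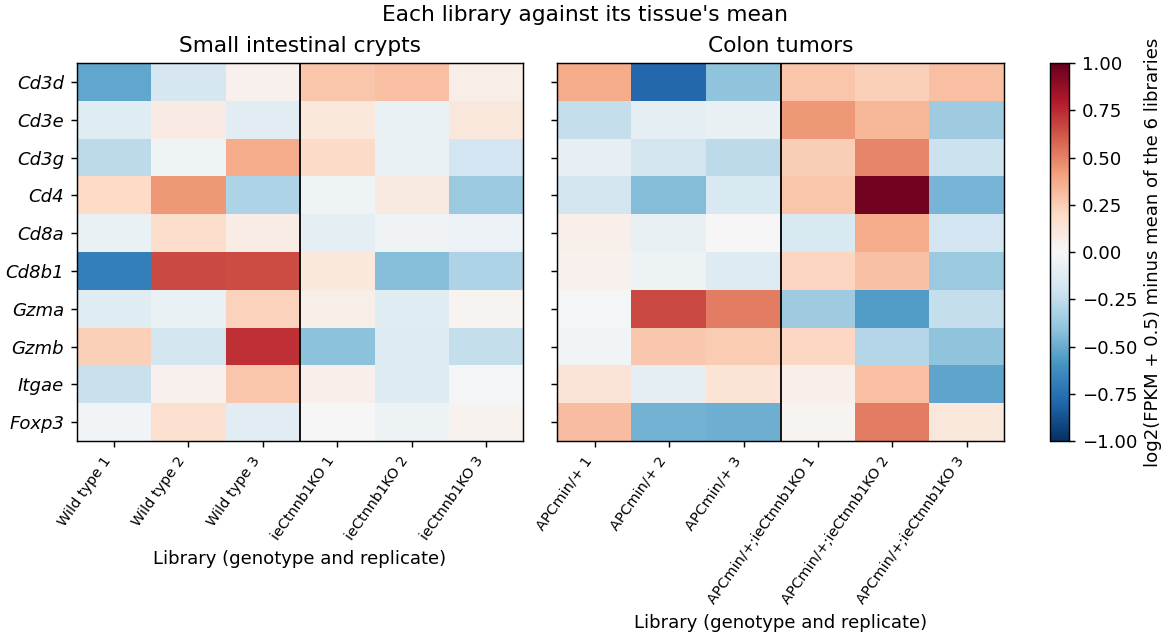
Each library's log2(FPKM + 0.5) minus the mean of the 6 libraries of its tissue, by member (rows) and library (columns), red above and blue below the mean. Wild-type replicate 3 is red for Gzmb (0.73) and Cd8b1 (0.65) in crypts, and in tumors APCmin/+;ieCtnnb1KO replicate 2 reaches 0.96 for Cd4 while replicate 3 of that group is blue for all members but Cd3d and Foxp3.

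Single libraries set much of the spread. In crypts the highest value of the 6 was found in wild-type replicate 2 or 3 for 4 members each, and the lowest in wild-type replicate 1 for 6, so the wild-type group was the wider one. In tumors APCmin/+;ieCtnnb1KO replicate 2 was highest for 6 members, and replicate 3 of the same group lowest for 6. The pan-leukocyte genes had their extremes in the same libraries: of 7 such genes, knockout replicate 2 was highest for 4 and knockout replicate 3 lowest for 6. Their summed FPKM was 85.3, 59.1 and 63.9 in APCmin/+ tumors and 81.1, 89.3 and 52.0 in the knockout. Replicate 3 is also the female library of each tumor genotype. The part of leukocyte content and of sex in the values of single members was not tested beyond a fit with sex as a term, which also called 0 genes.

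Relations between members within a library do not depend on how libraries were scaled. Crypts and tumors come from tables that were normalized separately and from different organs, the small intestine and the colon, so their values are set side by side here without a test. Cd4 made up 6.82%, 7.12% and 3.73% of the summed Cd4 and Cd8a FPKM in wild-type crypts and 5.49%, 6.03% and 3.81% in ieCtnnb1KO crypts. In tumors this share was 88.8%, 90.8% and 91.0% in APCmin/+ and 97.0%, 91.1% and 95.8% in APCmin/+;ieCtnnb1KO. Cd8a thus exceeded Cd4 in all 6 crypt libraries, and Cd4 exceeded Cd8a in all 6 tumor libraries. The tumor genotypes did not overlap in this share, though Cd8a rests there on 2 to 17 fragments.

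Set against the mean FPKM of the 3 CD3 genes, Gzma was 46.9, 40.4 and 43.4 times as high in wild-type crypts and 37.0, 36.2 and 42.1 times in ieCtnnb1KO crypts. In APCmin/+ tumors the figure was 1.27, 5.28 and 3.76, and in APCmin/+;ieCtnnb1KO tumors 0.605, 0.413 and 1.10. The tumor genotypes did not overlap in this ratio, but its terms rest on few fragments. Foxp3 per CD3 went the other way between tissues, from 0.00990 to 0.0318 in crypts and from 0.791 to 1.51 in tumors, with overlapping genotypes in each.

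Itgae per CD3 was 2.02, 2.04 and 2.11 in wild-type crypts and 1.72, 1.67 and 1.91 in ieCtnnb1KO crypts, so the groups did not overlap although neither Itgae nor the mean of the CD3 genes separated them. In tumors it was 5.16, 8.78 and 8.72 in APCmin/+ and 3.62, 4.22 and 3.38 in the knockout, again without overlap. Neither Itgae nor the CD3 mean alone separated the tumor genotypes. The CD3 genes rest there on only 5 to 45 fragments per gene and library. The CD3 mean per Ptprc, the gene of the pan-leukocyte protein CD45, was 0.190, 0.130 and 0.139 in APCmin/+ tumors and 0.296, 0.246 and 0.359 in APCmin/+;ieCtnnb1KO tumors. That is, the CD3 mean per Ptprc was higher in all 3 knockout tumors than in any control tumor. This includes knockout replicate 3, the library lowest in leukocyte genes. There the CD3 mean came mostly from Cd3d, at 0.919 FPKM, against 0.141 for Cd3e and 0.333 for Cd3g. The separation is thus one of the mean and was not examined for each chain. In crypts the CD3 mean per Ptprc was 1.02, 1.14 and 1.43 in wild type and 1.97, 1.63 and 1.32 in the knockout, with overlap. 11 such ratios were computed per tissue after the values had been seen, and many share the CD3 genes. Groups did not overlap in 2 of 11 in crypts and 6 of 11 in tumors, each with an exact permutation p of 0.1. Among single tested genes the shares were 11.9% and 22.1%, but ratios that share genes are not separate results. Those not given above were Gzmb per CD3 in both tissues and Gzma per Epcam, an epithelial gene, in tumors. These were lower in the knockout. The lowest Benjamini-Hochberg adjusted permutation p over all 22 ratios was 0.275.

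**Figure D4:**
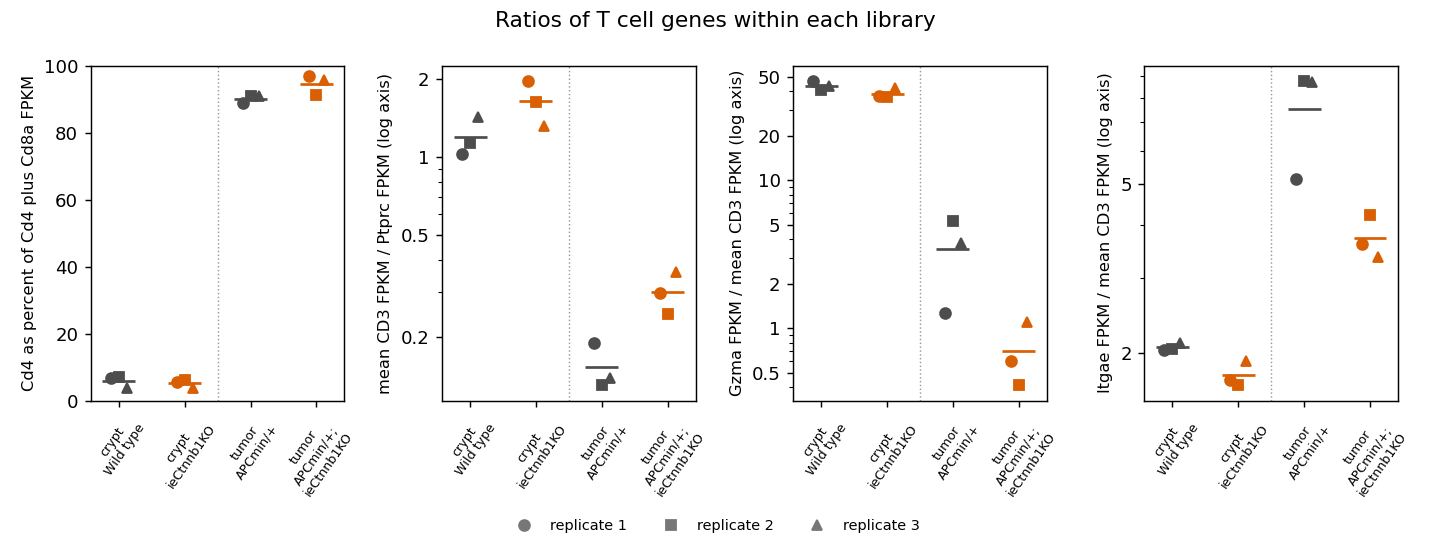
4 ratios of FPKM within each library: Cd4 as a percent of Cd4 plus Cd8a, the mean of the CD3 genes per Ptprc, Gzma per CD3 mean and Itgae per CD3 mean, the last 3 on log axes. Points are libraries and bars group means; the Cd4 share is at most 7.12% in crypts and at least 88.8% in tumors.

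The genes most alike to the CD3 genes were sought among genes averaging 1 FPKM or more. Each gene's log2(FPKM + 0.5) was set against the mean of the 3 CD3 genes on that scale. The SD of this difference over the 6 libraries was the measure. In crypts these were Stxbp2, Oard1, Pef1, Slc25a1 and Rcor3, with SDs of 0.04 among 12285 ranked genes. Stxbp2 is known for its part in granule release by cytotoxic lymphocytes, but the CD3 mean itself varied by an SD of only 0.17 among the 6 libraries, so many genes come close. Gzma (0.14, rank 721) and Itgae (0.14, rank 728) ranked ahead of Cd3g (0.16, rank 1104), Cd3e (0.16, rank 1221) and Cd3d (0.17, rank 1405) themselves, so the measure separates little here, and Cd8b1 (0.51, rank 10899) the farthest. In tumors the nearest genes were Frzb, Ctsh, Vsir, Cacng7 and Mxra8, with SDs of 0.04 to 0.06 among 14551 genes. The CD3 values there are near the added 0.5, so these SDs depend on it and are not those of plain FPKM ratios. Vsir encodes VISTA, an immune checkpoint protein of leukocytes, and Ctsh a lysosomal protease, while Frzb encodes a secreted Wnt antagonist. Vsir stood at 7.87, 5.78 and 6.12 FPKM in APCmin/+ tumors and at 8.72, 9.62 and 7.26 in the knockout, with overlap between APCmin/+ replicate 1 and knockout replicate 3. Gzma was the least alike of the members in tumors, with an SD of 0.76 on the scale with 0.5 added. It averaged 0.752 FPKM, under the limit of 1 FPKM for ranked genes. Rank 13774 is thus the place its SD would take among them.

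The constant genes of the T cell receptor gave a further view of the receptor itself. In crypts 5 of 7 tested constant genes were higher in ieCtnnb1KO and 2 lower, with a median log2 difference of 0.04 that turned to -0.02 under quantile normalization and ran from -0.01 to 0.20 with each library left out. The highest was Tcrg-C2, a γ chain gene, at 21.7, 25.04 and 21.7 FPKM in wild-type and 20.6, 23.2 and 24.7 in ieCtnnb1KO crypts. Tcrg-C1, another γ chain gene, had the smallest p. It was measured at 16.1, 14.9 and 17.6 FPKM in wild-type crypts and at 24.7, 17.9 and 25.3 in ieCtnnb1KO crypts, and the groups did not overlap. Its log2 difference was 0.46 (SE 0.16), with an adjusted p of 0.806 in limma, close in size to that of Cd3d. The γ constant genes and the Trbc genes are near copies of each other, so reads may be split between them.

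In tumors 3 of 5 tested constant genes were higher in the knockout, with a median of 0.27, or from 0.09 to 0.57 with each library left out. Trac, the α chain gene, was the highest, at 6.80, 8.10 and 8.44 FPKM in APCmin/+ and 8.17, 5.20 and 8.37 in APCmin/+;ieCtnnb1KO tumors. Its mean over the 6 libraries was 7.51 FPKM, against 0.698 for Cd3d, the highest CD3 gene. Trac did not follow the CD3 genes, as it was lowest in knockout replicate 2, where the CD3 mean was highest (0.751). Trbc2, a β chain gene, stood at 5.80, 4.12 and 2.80 in APCmin/+ tumors and at 6.65, 6.76 and 8.43 in the knockout. All knockout tumors lay above all controls for Trbc2, with a log2 difference of 0.76 (SE 0.24) and an adjusted p of 0.300 in limma.

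Genes that relay the receptor's signal were led in crypts by Lck, the kinase bound to the coreceptors, at 6.97, 7.41 and 8.80 FPKM in wild type and 8.01, 6.70 and 7.02 in ieCtnnb1KO. Of 12 tested signaling genes in crypts, 1 was higher and 11 were lower in the knockout, with a median of -0.13 (-0.02 without wild-type replicate 3), and 0 had an unadjusted limma p under 0.05, against 5.85% of all tested genes. Lat, an adaptor phosphorylated after receptor binding, had the smallest p, with 3.85, 4.77 and 5.49 FPKM against 3.80, 4.01 and 3.34, and overlapped through wild-type replicate 1. In tumors 6 of 9 were higher, with a median of 0.35 that ran from 0.16 to 0.53 with each library left out. 2 of the 9 had an unadjusted limma p under 0.05, against 14.5% of all tested genes: Thy1, also a gene of fibroblasts, with 9.34, 6.54 and 7.50 FPKM in APCmin/+ and 9.11, 13.2 and 11.8 in the knockout, and Lat, with 1.18, 0.460 and 0.483 against 1.46, 1.55 and 1.14. Thy1 overlapped through APCmin/+ replicate 1, and so did Lat, whose values in APCmin/+ tumors repeat the order seen for Cd3d.

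Among genes of cytotoxic and innate-like lymphocytes, Ccl5, a chemokine of activated T cells, was prominent in crypts, with 82.4, 109 and 136 FPKM in wild type and 119, 106 and 102 in ieCtnnb1KO. The 11 tested crypt genes of this list split into 4 higher and 7 lower, with a median of -0.02 that ran from -0.14 to 0.04 with each library left out. Ccl4, which had the smallest p, stood at 2.54, 2.58 and 2.90 against 5.96, 3.71 and 2.70, with knockout replicates 1 and 2 above all wild-type libraries. In tumors 5 genes of the list were tested and 2 were higher. Serpinb9, which shields cells from granzyme B, led them at 2.53 to 3.23 FPKM. Klrd1, a natural killer receptor gene, had 0.868, 0.520 and 0.574 FPKM in APCmin/+ and 0.582, 0.487 and 0.0501 in the knockout. Klrd1 passed the filter only through the APCmin/+ group, so its test is descriptive only and no conclusion is drawn from it. Ifng is listed at 0 in all 6 tumor libraries.

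The residence list, genes of lymphocytes lodged in epithelium, was led in crypts by Cd7, with 37.0, 40.1 and 50.8 FPKM in wild type and 46.9, 40.7 and 40.3 in ieCtnnb1KO. Of 15 tested genes 2 were higher and 13 lower in the knockout, with a median of -0.10 that ran from -0.15 to -0.02 with each library left out. Cd244a, the gene of a receptor of natural killer and CD8 T cells, had the smallest p: 2.98, 4.09 and 4.80 FPKM in wild type against 2.28, 2.24 and 2.92, without overlap. Its log2 difference was -0.57 (SE 0.19), with an adjusted p of 0.800 in limma.

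Cd7 was also the T cell pathway gene with the smallest p in tumors. It was measured at 0.927, 1.18 and 0.885 FPKM in APCmin/+ and at 0.329, 0.385 and 0.170 in APCmin/+;ieCtnnb1KO tumors. All knockout tumors lay below all controls, as for Gzma. Also as for Gzma, the filter on FPKM was passed only through the APCmin/+ group, and every knockout value of Cd7 lay under it. The test of Cd7 is therefore descriptive only, and no conclusion is drawn from it. The log2 difference was -0.92 (SE 0.21), with an adjusted p of 0.269 in limma, equal to the lowest of all 16743 tested genes. Of the 11 tested residence genes, Cd7 included, 5 were higher and 6 lower, with a median of -0.09 that turned to 0.14 without APCmin/+ replicate 1. The most abundant of the list was Tyrobp, an adaptor that is also abundant in macrophages, at 28.7 to 46.8 FPKM.

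Regulatory and checkpoint genes were low in crypts, where 5 of 12 were tested, 1 higher and 4 lower, with a median of -0.03 that became -0.20 without knockout replicate 1. Groups did not overlap for 1 of the 5, against 11.9% of all tested genes: Ikzf2, at 0.718, 1.08 and 0.890 FPKM in wild type against 0.566, 0.658 and 0.693. Lag3 led the list with 4.78, 7.35 and 3.81 FPKM in wild type and 5.33, 4.56 and 5.37 in ieCtnnb1KO, and Tigit had the smallest p, with 2.18, 1.14 and 2.15 against 2.81, 2.01 and 2.56. Both overlapped between genotypes. In tumors all 9 tested genes of the list were higher in the knockout, with a median of 0.28, which became 0.58 without knockout replicate 3. Without knockout replicate 1 it became 0.06. Groups did not overlap for 2 of the 9, Pdcd1 and Lag3, which also had the only unadjusted limma p under 0.05, against 22.1% and 14.5% of all tested genes, so the count is near that of other genes.

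Pdcd1 encodes PD-1, an inhibitory receptor of activated T cells. Its FPKM was 1.02, 0.565 and 0.970 in APCmin/+ tumors and 2.19, 3.04 and 1.36 in APCmin/+;ieCtnnb1KO tumors. All knockout tumors lay above all controls, replicate 2 the highest, as for Cd4 and Foxp3. The log2 difference was 0.96 (SE 0.28), with an adjusted p of 0.284 in limma. Lag3 stood at 1.38, 1.52 and 1.24 against 1.77, 2.96 and 1.95, a log2 difference of 0.51 (SE 0.20) with an adjusted p of 0.327. Tnfrsf18, which encodes the receptor GITR of regulatory T cells, was the most abundant of the list at 3.12 to 4.65 FPKM and overlapped.

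Helper cell factors and cytokines were mostly under the filter in both tissues. Il5 is listed at 0 in all 6 crypt libraries.

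Epithelial genes that T cells depend on include Cdh1, the gene of E-cadherin and thus of the partner of Itgae. Cdh1 was at 181, 176 and 137 FPKM in wild-type crypts and at 162, 175 and 158 in ieCtnnb1KO crypts, so RNA of the integrin's ligand was abundant in all 6. Of 14 tested crypt genes of this list 7 were higher and 7 lower. Cxcl9, a chemokine that draws T cells, had the smallest p, with 1.35, 0.976 and 0.783 FPKM against 0.631, 0.475 and 0.519, no overlap, and an adjusted p of 0.844 in limma. In tumors Cdh1 had 271, 251 and 260 FPKM in APCmin/+ and 280.2, 307 and 279 in the knockout, without overlap. 5 of 11 tested genes were higher there and 6 lower, and Cxcl10, again a T cell chemokine, stood at 2.19, 0.942 and 2.52 against 1.02, 1.05 and 0.911, with overlap through APCmin/+ replicate 2.

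Over all 91 genes of the T cell pathway lists, 65 were tested in crypts, 21 higher and 44 lower, with a median log2 difference of -0.07 against 0.01 for all tested genes. Without wild-type replicate 3 that median was 0.005. Groups did not overlap for 8 of the 65, against 11.9% of all tested genes, and 3 had an unadjusted limma p under 0.05 (Tcrg-C1, Cd244a and Cxcl9), against 5.85%, so these counts do not set the lists apart. In tumors 53 were tested, 32 higher and 21 lower, with a median of 0.09 against 0.01. Groups did not overlap for 6 of the 53, against 22.1% of all tested genes, and 6 had an unadjusted p under 0.05, against 14.5%. Cd7 is in both counts although it passed the filter only through the APCmin/+ group. Leaving out each library in turn, the tumor median ran from 0.02 to 0.21. By limma 0 of either tissue passed adjustment, and voom called 0.

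**Figure D5:**
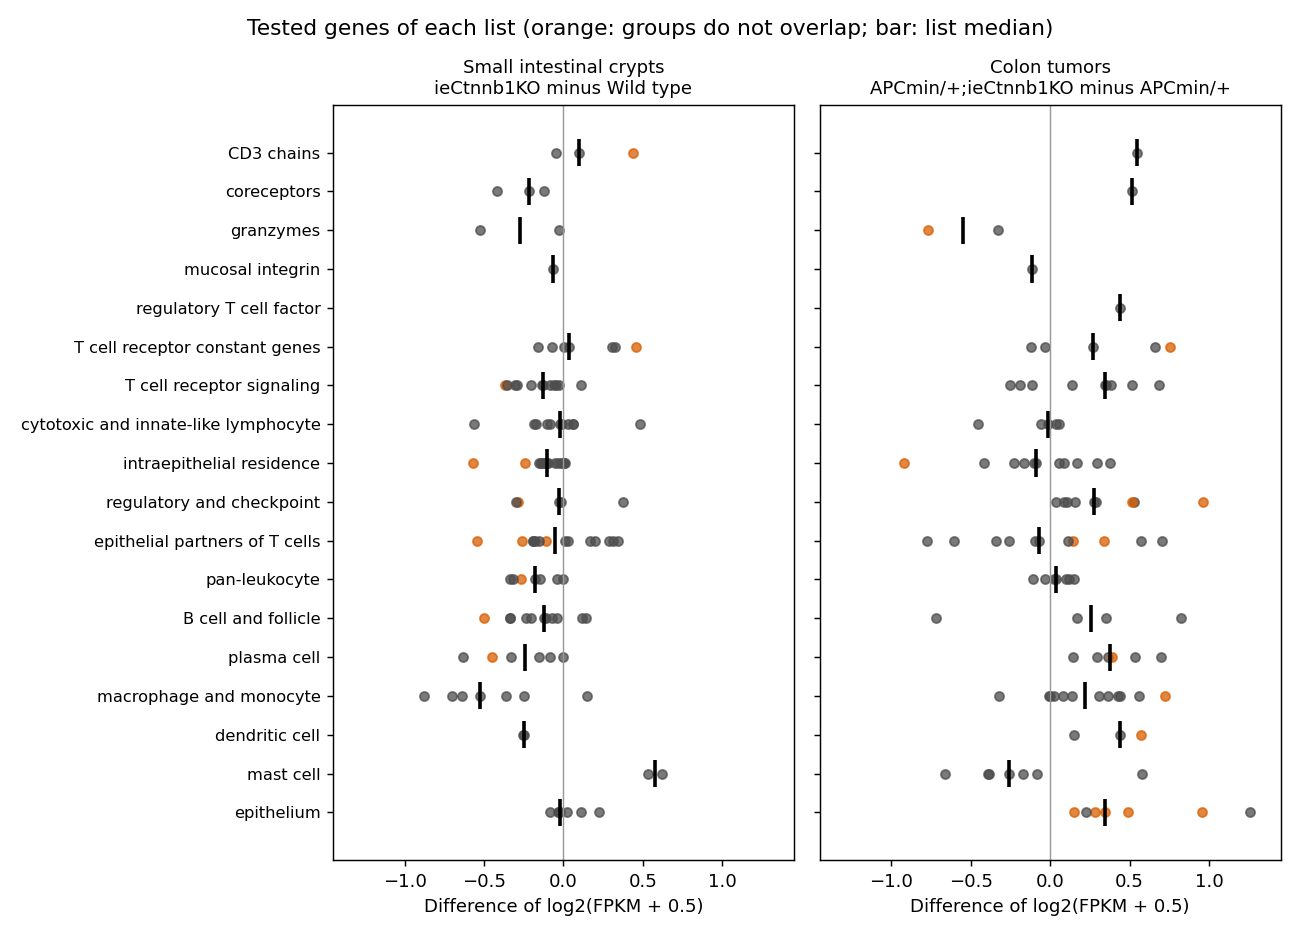
Log2 difference, knockout minus control, of the tested genes in each list but that of helper cell factors, crypts on the left and tumors on the right. Points are genes, orange where the groups do not overlap, and black bars are list medians. The 9 regulatory and checkpoint genes lie above 0 in tumors, and the 7 pan-leukocyte genes lie below 0 in crypts.

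Markers of other cell types give the setting in which the T cell genes were measured. Epithelium dominated all libraries, with Krt8 at 1405 to 1917 FPKM in crypts and 1280 to 1796 in tumors. Elf3 had the smallest p of the 7 epithelial genes in crypts and overlapped between genotypes, at 109 to 238 FPKM. Leukocyte genes were present in crypts too: the 7 pan-leukocyte genes summed to 66.2, 73.8 and 73.4 FPKM in wild type and 59.7, 68.5 and 59.8 in ieCtnnb1KO, with Coro1a the most abundant. All 7 were lower in the knockout, with a median of -0.18, and Ptprc, with the smallest p, did not overlap, at 4.60, 5.0 and 4.52 against 3.42, 3.74 and 4.38. In the same libraries the summed FPKM of the 3 CD3 genes was 14.1, 17.0 and 19.4 in wild type and 20.2, 18.2 and 17.3 in ieCtnnb1KO. What part the other leukocytes have in this was not tested.

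B cell genes were found in crypts beside the T cell genes, led by Cd79b with 10.8, 9.96 and 7.36 FPKM in wild type and 10.2, 12.9 and 8.21 in ieCtnnb1KO. Of 11 tested B cell and follicle genes 2 were higher and 9 lower, and Cd22 did not overlap, at 2.78, 2.31 and 2.30 against 1.43, 1.81 and 1.55. All 6 genes of the plasma cell list were lower, with a median of -0.24, or from -0.35 to -0.145 with each library left out. Xbp1 was the most abundant of them, at 62.6 to 98.8 FPKM, far above Jchain. Which cells the Xbp1 RNA came from was not tested, so the list is not read as plasma cells alone. Jchain, with the smallest p, stood at 10.4, 14.4 and 11.4 against 8.10, 9.01 and 8.71, without overlap. Macrophage and monocyte genes, led by Lyz2, were lower for 6 of 7 tested, with a median of -0.53 that became -0.15 without knockout replicate 3. C1qc had the smallest p of them, at 1.47, 1.59 and 2.61 against 0.891, 1.76 and 0.442 FPKM, with overlap, and mast cell genes, led by Mcpt1, were higher for 2 of 2. Dendritic cell genes were mostly under the filter, with 2 of 8 tested, so the crypt Itgae level stands beside an Itgax level of 1.52 to 2.63 FPKM.

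In tumors the leading macrophage and plasma cell genes far exceeded every T cell member. Lyz2, a macrophage gene, was at 382, 247 and 439 FPKM in APCmin/+ and 337, 479 and 253 in APCmin/+;ieCtnnb1KO tumors, and Igha, of plasma cells, at 1459, 438 and 608 against 1512, 947 and 821. Of 12 macrophage and monocyte genes 10 were higher in the knockout, with a median of 0.22. C1qa stood at 74.3, 45.1 and 53.3 against 86.8, 112 and 82.9, without overlap. All 6 genes of the plasma cell list and 3 of 3 tested dendritic cell genes were also higher, with medians of 0.37 and 0.44. With each library left out the medians ran from 0.10 to 0.47 for macrophage genes, 0.14 to 0.66 for plasma cell genes and 0.27 to 0.58 for dendritic cell genes. Among epithelial genes 7 of 7 were higher, with a median of 0.35 that fell to 0.11 under quantile normalization. Groups did not overlap for 5 of the 7, against 22.1% of all tested genes. An unadjusted limma p under 0.05 was found for 3, against 14.5%. Krt20, a gene of mature colonocytes, had 92.9, 47.8 and 49.2 FPKM in APCmin/+ and 112, 125 and 115 in the knockout. None of these markers passed adjustment in limma. Xbp1 had the smallest p of the plasma cell list, at 77.8, 66.2 and 66.5 FPKM against 89.4, 89.6 and 96.1, without overlap. Its cells of origin were not tested here either. Batf3 had the smallest p of the dendritic cell genes, at 1.08, 1.25 and 1.59 against 2.57, 2.34 and 1.69, also without overlap. Itgax, the most abundant dendritic cell gene, overlapped at 3.38 to 9.88 FPKM. Of the 4 tested B cell and follicle genes 3 were higher but not Cxcl13, their most abundant and the one with the smallest p, which overlapped at 2.45 to 8.37 FPKM. Of 7 mast cell genes only Cma1, with the smallest p, was higher, and the median of -0.26 turned to 0.33 without knockout replicate 3 and was -1.03 without knockout replicate 2. Mcpt1 was the most abundant of them, at 6.20 to 58.7 FPKM. Among pan-leukocyte genes Coro1a was the most abundant, at 14.3 to 22.7 FPKM, and Cd52 had the smallest p, at 9.52 to 15.4, each with overlap. Whether the makeup of the tumors has a part in the T cell values was not tested.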

How the data were processed

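The deposited tables hold FPKM that the authors computed from paired-end libraries, 1 table for crypts and 1 for tumors, already scaled between libraries. Hisat2 and featureCounts are named for alignment and counting, and the submitters' notes also name cutadapt, Cufflinks and DESeq2. The use of strand is not given in the sources used here. Fragments were recovered from the steps of FPKM, and 100% of values were whole within 0.1. Genes with a mean FPKM of 0.5 or more were tested within each table on log2(FPKM + 0.5), with limma 3.58.1 in R 4.3.3, a variance trend and Benjamini-Hochberg adjustment over all tested genes, called at 0.05. Exact permutation p-values were added for members. Alternatives were other pseudocounts, filters and scalings, no trend, robust moderation, voom, a replicate block, sex as a term in tumors, and leaving out each library. Members and lists were chosen with earlier results of these data known. From each list the most abundant gene and the gene with the smallest p were named, and any others after their values were seen, as were the ratios. 1 gene is not reported here.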

Additional observations from a re-analysis of the deposited data

How the results depend on the processing

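Of 162 member values under alternatives in crypts 157 kept direction and call, and of 111 in tumors 110 did, and only leaving out a library turned a sign. Leaving out each library in turn, the log2 difference ran from -0.19 to 0.13 for Cd3g, from -0.10 to 0.0799 for Gzma and from -0.19 to 0.0576 for Itgae in crypts, and from -0.29 to 0.12 for Itgae in tumors. The number of called crypt genes in limma ranged from 0 to 3, with 3 without wild-type replicate 3. In tumors 1 gene was called with no variance trend, and 0 otherwise. With the replicate block 0 genes were called in either tissue; libraries of the same number correlated by -0.05, -0.12 and 0.04 in crypts and 0.05, -0.09 and 0.05 in tumors, so the numbers are not treated as pairs. Cd3d, Gzma and Foxp3 have no tumor value under a filter of 1 FPKM. Groups of 3 and few T cell fragments in tumors limit every comparison.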
